A study of Mus musculus with 2 samples.

Results

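The D cyclins, the kinases they bind and the inhibitors of those kinases were followed in single cells of lymphoid progenitors from mouse fetal liver and adult bone marrow. The set held 10 of the 27998 genes in the matrices, taken by symbol, and each of the 10 had UMIs (counts of distinct tagged RNA molecules) in both libraries. They are the cyclins Ccnd1, Ccnd2 and Ccnd3, the kinases Cdk4 and Cdk6, the inhibitors Cdkn1a, Cdkn1b, Cdkn2c and Cdkn2d, and Rb1. D cyclins are made in response to growth signals, bind CDK4 or CDK6 and switch these kinases on. The active kinases phosphorylate the retinoblastoma protein, encoded by Rb1, which then lets go of E2F factors, so that genes for DNA replication are transcribed. The INK4 proteins p18 (Cdkn2c) and p19 (Cdkn2d) bind CDK4 and CDK6 directly, whereas the CIP/KIP proteins p21 (Cdkn1a) and p27 (Cdkn1b) bind cyclin and kinase complexes more widely.

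The cells were α4β7-positive lymphoid progenitors (αLPs), sorted as lineage-negative, CD45-positive, CD127-positive and CD25-negative cells without Flt3, from untreated wild-type B6 mice, with a purity above 90% per the labels. Both samples carry the same batch label. One group came from fetal liver, at E14.5 (embryonic day) per the series' design text, and the other from the bone marrow of adults. Each tissue gave 1 library, so no difference between tissues could be tested, and tissue cannot be told apart from age, library or preparation. Both samples carry an age of 6 to 8 weeks in the labels, which was not used for the fetal sample, and no source used here gives the number or sex of the animals.

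After filtering, 8583 of 8946 fetal liver barcodes with 91285900 UMIs and 7258 of 7367 bone marrow barcodes with 29941097 UMIs were kept. The median cell held 9294 UMIs in fetal αLPs and 3447.5 UMIs in marrow αLPs, and 19 barcodes occurred in both libraries. Of the gate genes, Il7r, which encodes CD127, had 178 CPM (UMIs per 1000000 UMIs of the kept cells) in fetal αLPs and 417 CPM in marrow αLPs, and Flt3 had 1.45 CPM in fetal αLPs and 1.20 CPM in marrow αLPs. Il2ra, which encodes CD25, had 1.08 CPM in fetal αLPs and 7.78 CPM in marrow αLPs. Ptprc, which encodes CD45, had 78.6 CPM in fetal αLPs and 135 CPM in marrow αLPs. The α4 and β7 integrin genes were present, Itga4 at 172 CPM in fetal αLPs and 262 CPM in marrow αLPs and Itgb7 at 47.9 CPM in fetal αLPs and 61.8 CPM in marrow αLPs. Xist, which is transcribed in female cells, had 252 CPM in fetal αLPs and 0.0668 CPM in marrow αLPs, whereas the Y-linked gene Ddx3y had 19.7 CPM in fetal αLPs and 74.6 CPM in marrow αLPs. Erythroid markers summed to 189 CPM in fetal αLPs and 21.2 CPM in marrow αLPs, neutrophil markers to 139 CPM in fetal αLPs and 8.85 CPM in marrow αLPs, and B lineage markers to 153 CPM in fetal αLPs and 34.1 CPM in marrow αLPs. T cell markers summed to 357 CPM in fetal αLPs and 70.9 CPM in marrow αLPs. For mast or basophil markers the sums were 199 CPM and 209 CPM, and for monocyte or macrophage markers 10.1 CPM and 4.61 CPM, fetal αLPs first. The part of sex, depth and other lineages in the differences between libraries was not tested. Values without the clusters of other blood lineages are given only for Ccnd1 and for the median ratio of the set.

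On mm10, with GENCODE M21 gene bounds, Ccnd1 lies at chr7:144929931-144939925 (-), Ccnd2 at chr6:127125162-127152193 (-) and Ccnd3 at chr17:47505051-47599691 (+). Cdk4 lies at chr10:127063534-127067920 (+) and Cdk6 at chr5:3341485-3531008 (+). The inhibitors lie at chr17:29090976-29100727 (+) for Cdkn1a, chr6:134920401-134925513 (+) for Cdkn1b, chr4:109660876-109667189 (-) for Cdkn2c and chr9:21288410-21291407 (-) for Cdkn2d, and Rb1 lies at chr14:73183673-73325822 (-). Exons of Cdk4 share 641 bases with Tspan31 on the opposite strand, and those of Rb1 share 408 bases with Lpar6 and 488 bases with Rcbtb2. Those of Ccnd1 share 1100 bases with LTO1 and those of Ccnd3 361 bases with Bysl, also on the opposite strand. Ccnd2, Cdk6 and Cdkn1a share exonic bases with opposite-strand genes that are not annotated as protein-coding. No source used here says whether counting used strand, so reads in the shared bases may belong to either gene. Tspan31 had 46.9 CPM in fetal αLPs and 33.0 CPM in marrow αLPs, and Lpar6 had 37.4 CPM in fetal αLPs and 113 CPM in marrow αLPs.

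The promoters of the kinases are shown because Cdk4 and Cdk6 differed between the libraries in opposite directions. RefSeq promoters on GRCm38.p6 run from 250 bases before to 50 bases after a gene's start and matched 7 of the 10 genes. The RefSeq start used for Cdk6 lies inside the GENCODE bounds given above, downstream of their first base, so its window is not the region around the GENCODE start. The Cdk4 promoter is chr10:127063285-127063584 (+) and the Cdk6 promoter chr5:3343643-3343942 (+). Capitals mark the E-box CACGTG, the site that MYC and related factors can bind, which reads the same on both strands.
Cdk4: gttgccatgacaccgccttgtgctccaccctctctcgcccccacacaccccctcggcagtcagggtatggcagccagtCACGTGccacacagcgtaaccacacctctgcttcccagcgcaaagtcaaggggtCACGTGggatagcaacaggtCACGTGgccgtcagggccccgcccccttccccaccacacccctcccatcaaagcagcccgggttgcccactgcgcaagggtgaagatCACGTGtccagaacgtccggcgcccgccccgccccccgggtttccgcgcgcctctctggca
Cdk6: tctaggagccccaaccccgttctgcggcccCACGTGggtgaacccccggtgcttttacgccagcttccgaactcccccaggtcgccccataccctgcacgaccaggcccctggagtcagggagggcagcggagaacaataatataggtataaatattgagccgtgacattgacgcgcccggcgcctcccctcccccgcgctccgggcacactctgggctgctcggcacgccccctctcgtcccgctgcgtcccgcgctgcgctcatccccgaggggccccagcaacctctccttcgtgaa
The E-box occurs 4 times in the Cdk4 window, with first bases at -172, -118, -98 and -11 from the RefSeq start, and 1 time in the Cdk6 window, at -220. Of 32851 promoters of this length, 7.15% held it at least 1 time and 8, or 0.0244%, at least 4 times. It was 1 of 11 motifs searched and was picked for display after the matches were seen. These letters are a description of sequence, and binding was not measured. Myc itself had 23.7 CPM in fetal αLPs and 29.6 CPM in marrow αLPs, and Mycn 5.62 CPM in fetal αLPs and 16.0 CPM in marrow αLPs.

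Between the libraries, Cdk4 was higher and Cdk6 lower in fetal liver, and the inhibitor genes Cdkn1a and Cdkn1b were lower. Of the 8 genes of the set that reached 10 CPM in either library, 0 passed 2-fold upward in fetal liver and 3 passed it downward, namely Cdk6, Cdkn1a and Cdkn1b. Among all 6938 genes at that level, 7.25% passed it upward and 10.9% downward. The median log2 ratio (the fetal over the marrow library) was -0.49 over the 8 genes and 0.01 over all genes.

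**Figure D1:**
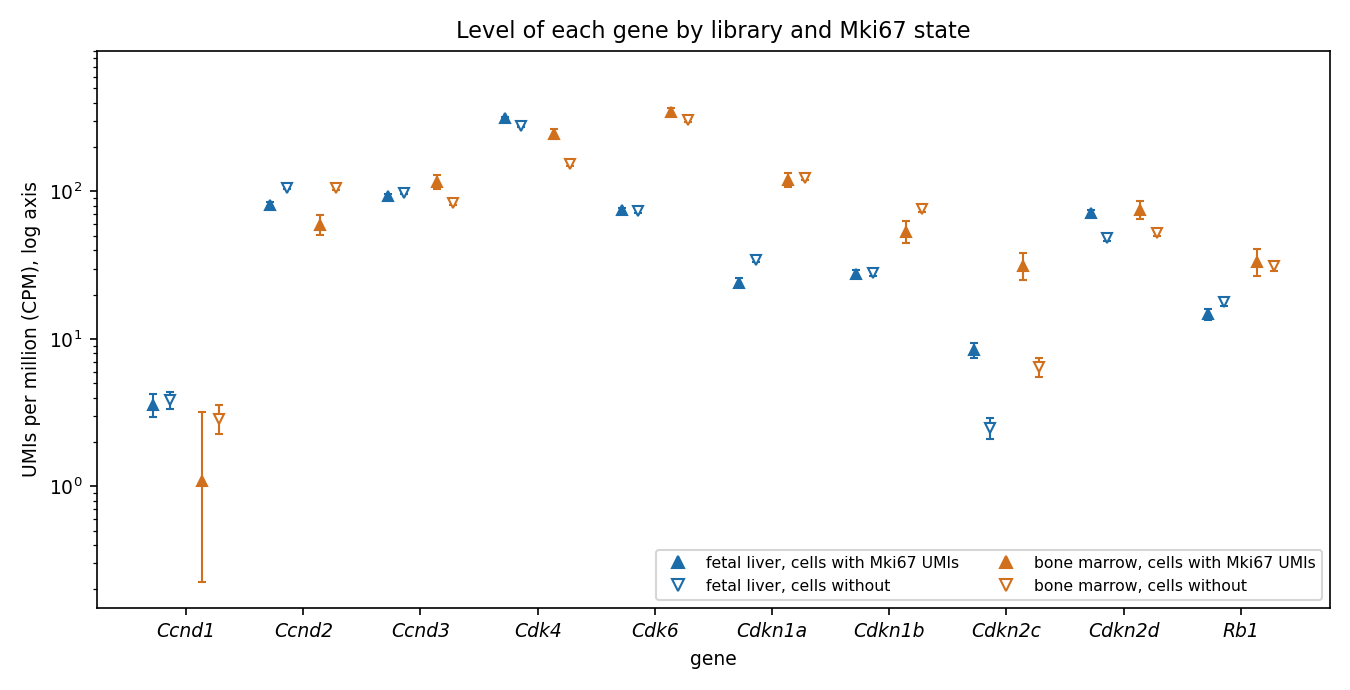
CPM of each gene on a log axis in fetal liver (blue) and bone marrow (orange), with filled triangles for cells with Mki67 UMIs, open triangles for cells without, and exact Poisson 95% intervals for counting error. Cdk6, Cdkn1a, Cdkn1b and Rb1 lie lower in fetal liver in both kinds of cell, and Cdkn2c lies higher in cells with Mki67 UMIs in both libraries.

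Cdk4, a kinase that partners all D cyclins, was counted 26533 times in fetal liver and 4864 times in bone marrow, which is 291 CPM in fetal αLPs and 162 CPM in marrow αLPs. Its log2 ratio was 0.84, with a 95% interval of 0.80 to 0.88 for counting error only, as are all intervals here. Cdk6, the other partner kinase of the D cyclins, had 74.0 CPM in fetal αLPs and 308 CPM in marrow αLPs. That difference was 4.16-fold, a log2 ratio of -2.06 (interval -2.10 to -2.01). Cdk4 thus stood below the 2-fold mark and Cdk6 well past it, in opposite directions.

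Shares of cells depended on depth. As counted, 41.7% of fetal liver cells and 50.4% of bone marrow cells had a Cdk6 UMI. With each cell thinned to 2000 UMIs, which left 8452 fetal liver and 5923 bone marrow cells, a Cdk6 UMI was seen in 12.3% of fetal liver cells (exact interval 11.6 to 13.0) and 38.8% of bone marrow cells (37.6 to 40.1). Cdk4 UMIs were seen in 38.3% of thinned fetal liver cells and 23.6% of thinned bone marrow cells. Thinning left out the 131 fetal liver and 1335 bone marrow cells with fewer UMIs, so the thinned bone marrow cells are a different mix of cells. As a gauge of free RNA, Apoa2, a plasma protein gene of hepatocytes, had a UMI in 6.59% of fetal liver cells and 1.20% of bone marrow cells as counted.

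Among thinned cells, Cdk4 without Cdk6 was the state of 33.5% of fetal liver cells and 13.3% of bone marrow cells. Cdk6 without Cdk4 was seen in 7.43% of fetal liver cells and 28.5% of bone marrow cells. Both kinases were seen in 4.85% of fetal liver cells and 10.3% of bone marrow cells, against 4.71% and 9.17% for the product of the single shares. A cell without a UMI at this depth may still express the gene, so the states describe what was captured and not which kinase a cell lacks. In cells with Mki67 UMIs, Cdk4 without Cdk6 was the state of 36.7% of fetal liver cells and 14.7% of bone marrow cells, and Cdk6 without Cdk4 of 6.20% in fetal liver and 27.1% in bone marrow.

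**Figure D2:**
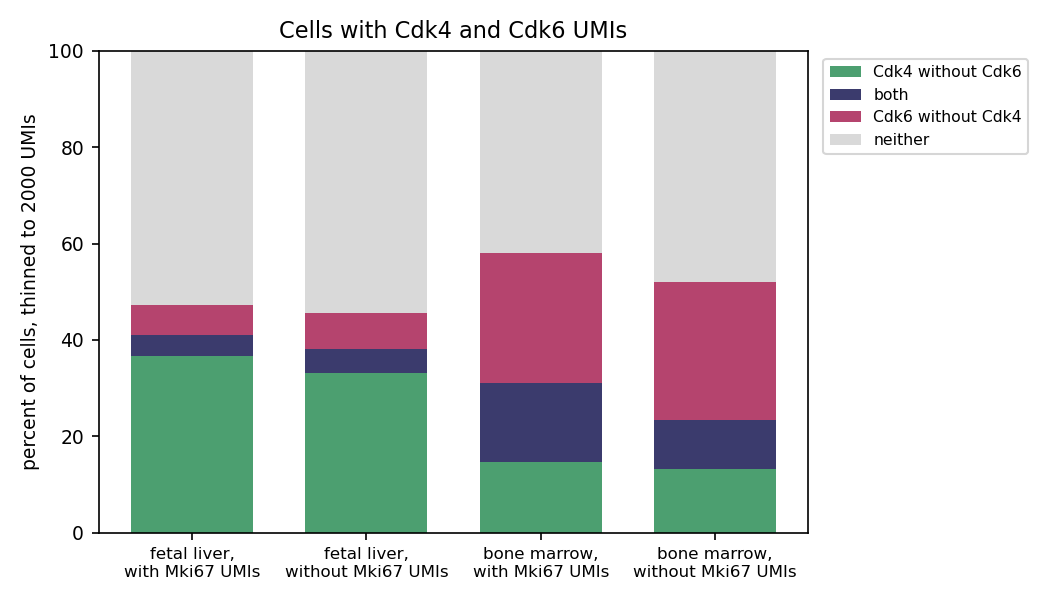
Percent of cells, thinned to 2000 UMIs, with UMIs of Cdk4, Cdk6, both or neither, by library and Mki67 state. Green (Cdk4 without Cdk6) fills 36.7% and 33.2% of the fetal liver bars and 14.7% and 13.3% of the bone marrow bars, and pink (Cdk6 without Cdk4) 6.20% and 7.53% against 27.1% and 28.6%.

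The D cyclins themselves differed little in the summed libraries. Ccnd2, a D cyclin induced by cytokines in lymphoid cells, had 96.6 CPM in fetal αLPs and 102 CPM in marrow αLPs, or a log2 ratio of -0.08 (interval -0.14 to -0.02). With other scaling its sign changed, and it was 0.06 with trimmed mean (TMM) factors. Ccnd3, the D cyclin that early T and B cell precursors need for expansion, had 96.1 CPM in fetal αLPs and 86.8 CPM in marrow αLPs, or a log2 ratio of 0.15 (0.08 to 0.21). Ccnd1 was rare, with 340 UMIs or 3.72 CPM in fetal αLPs and 81 UMIs or 2.71 CPM in marrow αLPs, and lay under the 10 CPM minimum. Its log2 ratio of 0.46 (0.11 to 0.83) was -0.03 without the clusters of other blood lineages and -3.92 when the classes named in both libraries weighed the same, an alternative added after the data were seen.

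Cdkn1a and Cdkn1b were lower in fetal liver, whereas the third CIP/KIP gene, Cdkn1c, which is not in the set, was higher there, at a log2 ratio of 2.15. Cdkn1a, which encodes p21, a target of p53 and of other stress signals, had 30.6 CPM in fetal αLPs and 124 CPM in marrow αLPs, or a log2 ratio of -2.02 (interval -2.09 to -1.94). Cdkn1b, which encodes p27, an inhibitor typical of resting lymphocytes, had 27.8 CPM in fetal αLPs and 73.7 CPM in marrow αLPs, or a log2 ratio of -1.41 (-1.49 to -1.32). In thinned cells, 5.70% of fetal liver cells and 18.9% of bone marrow cells had a Cdkn1a UMI, and 6.02% of fetal liver cells and 14.8% of bone marrow cells a Cdkn1b UMI. As counted, Cdkn1b shares were 24.1% in fetal liver and 24.9% in bone marrow, so the difference was visible in CPM and at equal depth but not in raw shares.

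The INK4 genes differed by less than 2-fold. Cdkn2d, which encodes p19, had 57.1 CPM in fetal αLPs and 54.3 CPM in marrow αLPs, and the interval of its log2 ratio of 0.07 ran from -0.01 to 0.15. Cdkn2c, which encodes p18, had 4.72 CPM in fetal αLPs and 8.68 CPM in marrow αLPs, or a log2 ratio of -0.88 (-1.10 to -0.65) under the 10 CPM minimum. It was seen in 4.31% of fetal liver cells as counted, fewer than for Apoa2, so its share in the whole fetal library is not above that gauge, and neither is the 2.95% of Ccnd1. Rb1, the substrate of the kinases, had 16.6 CPM in fetal αLPs and 31.2 CPM in marrow αLPs, or a log2 ratio of -0.91 (-1.03 to -0.79).

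Mki67, a gene transcribed in cycling cells, had UMIs in 2329 fetal liver cells (27.1%) and 317 bone marrow cells (4.37%). In thinned cells the shares were 7.44% in fetal liver and 2.18% in bone marrow. Cells with Mki67 UMIs were deeper than cells without, with medians of 13296 and 8145 UMIs in fetal liver and of 7957 and 3354 UMIs in bone marrow, so each ratio was also computed in thinned cells. Thinning also changed the groups, because Mki67 was read again after it, which left 629 fetal liver and 129 bone marrow cells with Mki67 UMIs. As counted, 2311 fetal liver and 315 bone marrow cells deep enough for thinning had Mki67 UMIs. Those that lost them joined the cells without. Thinned ratios by Mki67 state thus differ from the counted ones in both depth and groups, and the 2 cannot be told apart.

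Within fetal liver, 0 of the 8 genes with at least 10 CPM were 2-fold higher and 0 were 2-fold lower in cells with Mki67 UMIs, where 2.64% and 0.582% of 6355 genes were. Cdkn2c, under that minimum, had 8.41 CPM in cells with Mki67 UMIs and 2.48 CPM in cells without, a log2 ratio of 1.76 (interval 1.46 to 2.06). In thinned fetal liver cells its ratio was 2.11 (1.22 to 2.93), from 2.70% of cells with Mki67 UMIs and 0.588% of cells without. Among the inhibitors of the set, the p18 gene therefore stood higher in fetal liver cells with Mki67 UMIs by the widest margin.

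Within bone marrow, 1 of 9 genes was at least 2-fold higher in cells with Mki67 UMIs, where 7.11% of 6965 genes were, and 0 were 2-fold lower, where 5.73% were. That gene was again Cdkn2c, with 31.2 CPM in cells with Mki67 UMIs and 6.40 CPM in cells without, a log2 ratio of 2.28 (1.89 to 2.66). Outside the set, the inhibitor genes Cdkn3 and Cdkn1c had wider ratios in bone marrow, 3.40 and 2.44. In fetal liver theirs were 1.35 and 0.30. Cdkn2d, the other INK4 gene, had 72.0 CPM in cells with Mki67 UMIs and 48.1 CPM in cells without in fetal liver, a log2 ratio of 0.58. In bone marrow Cdkn2d had 75.0 CPM with and 52.2 CPM without Mki67 UMIs, a log2 ratio of 0.52.

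Summed over cells, neither Cdkn1a nor Cdkn1b was higher in cells with Mki67 UMIs, while Cdkn1c had log2 ratios of 0.30 in fetal liver and 2.44 in bone marrow. Cdkn1a had 24.1 CPM in fetal liver cells with Mki67 UMIs and 34.5 CPM in those without, a log2 ratio of -0.52 (-0.64 to -0.40), while in bone marrow its ratio was -0.06 (-0.23 to 0.10). Cdkn1b had a ratio of -0.01 (-0.12 to 0.11) in fetal liver and of -0.51 (-0.76 to -0.27) in bone marrow. In thinned cells all 4 of these intervals reached past 0 on both sides, those of Cdkn1a running from -0.78 to 0.26 in fetal liver and from -1.30 to 0.01 in bone marrow. Within clusters, Cdkn1b was higher with Mki67 UMIs in 9 of 14 in fetal liver, with the interval above 0 in 2 and below 0 in 0, and lower in 3 of 3 in bone marrow, with the interval below 0 in 1. Cdkn1a was lower in 12 of 14 in fetal liver, with the interval below 0 in 5 and above 0 in 1. In bone marrow Cdkn1a was lower in 3 of 3, with the interval below 0 in 1 and a median log2 ratio of -0.29.

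Among the cyclins, Ccnd2 was lower in bone marrow cells with Mki67 UMIs, at 59.1 CPM against 106 CPM without, a log2 ratio of -0.85 (-1.08 to -0.62). In fetal liver Ccnd2 had 81.2 CPM in cells with and 106 CPM in cells without Mki67 UMIs, a ratio of -0.38 that became 0.13 (-0.13 to 0.39) in thinned cells. As counted, Ccnd3 differed in sign, with a ratio of -0.08 (-0.14 to -0.01) in fetal liver and of 0.47 (0.29 to 0.64) in bone marrow. Its fetal liver ratio was -0.03 (-0.32 to 0.24) in thinned cells. That ratio ran from -0.088 to 0.086 over the alternative settings, so its sign was not stable. Cdk4 was higher with Mki67 UMIs in both libraries, by 0.19 (0.15 to 0.23) in fetal liver and 0.67 (0.55 to 0.78) in bone marrow on the log2 scale, although in thinned fetal liver cells the interval ran from -0.03 to 0.29. For Cdk6 these ratios were 0.02 in fetal liver and 0.18 in bone marrow, both small beside those of Cdkn2c. Over the alternative settings, the ratio of Cdk6 in fetal liver ran from -0.24 to 0.09 and so changed sign.

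**Figure D3:**
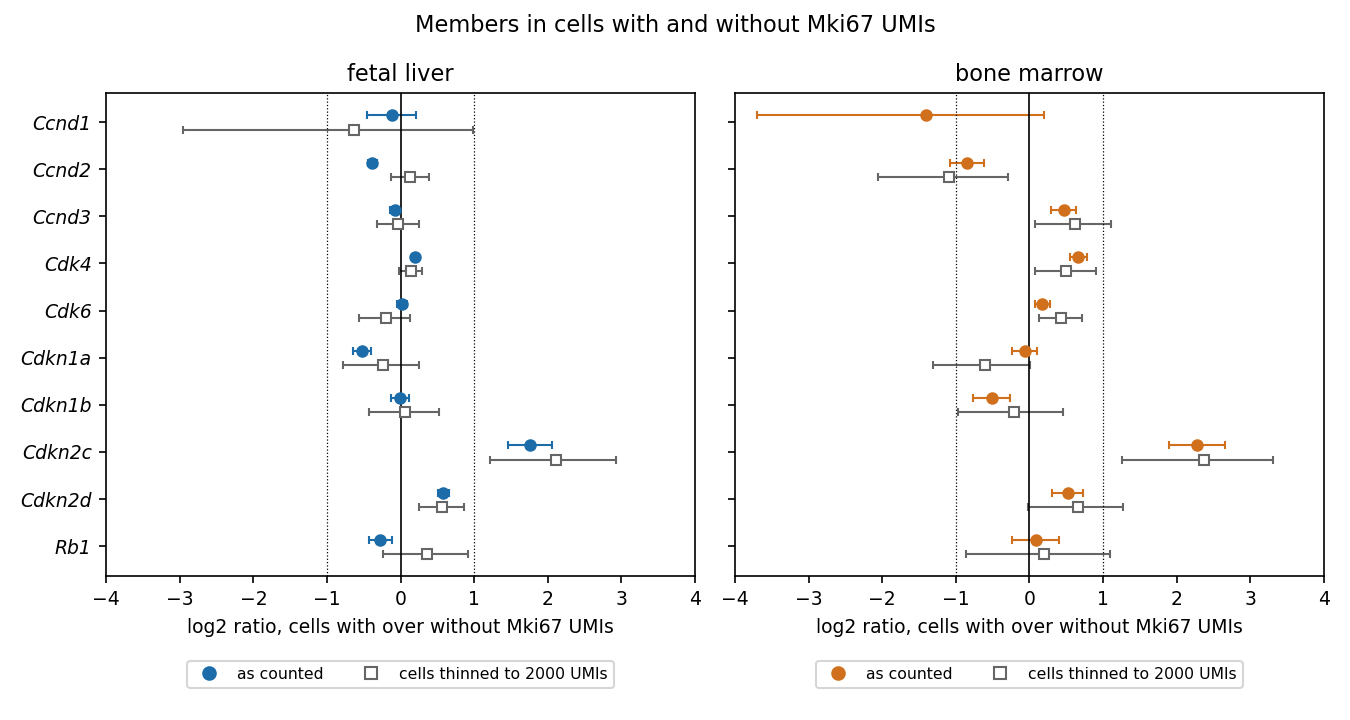
Log2 ratio of CPM in cells with over cells without Mki67 UMIs for each gene, in fetal liver (left) and bone marrow (right), as counted (filled) and with cells thinned to 2000 UMIs (open), with exact 95% intervals for counting error and dotted lines at 2-fold. Cdkn2c lies past 2-fold, at 1.76 on the left and 2.28 on the right, and a gene with 0 UMIs in thinned cells has no open point.

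The difference between the libraries was also seen within each Mki67 state. In cells with Mki67 UMIs, 0 of 9 genes passed 2-fold upward in fetal liver, as 4.92% of 6794 genes did, and 4 passed it downward, as 7.99% did. Those were Cdk6 at -2.20 (interval -2.31 to -2.10), Cdkn1a at -2.30 (-2.49 to -2.12), Cdkn2c at -1.89 (-2.24 to -1.53) and Rb1 at -1.17 (-1.49 to -0.83). In thinned cells Rb1 left this group at -0.75 (-1.83 to 0.45) and Cdkn1b entered it at -1.10 (-1.93 to -0.21). In cells without Mki67 UMIs, 0 of 8 genes passed 2-fold upward, as 7.07% of 6940 genes did, and 3 passed it downward, as 10.4% did, namely Cdk6 at -2.05, Cdkn1a at -1.85 and Cdkn1b at -1.44. Cdk4 stood at 0.36 in cells with Mki67 UMIs and at 0.84 in cells without. The cells without were not matched for cycling, and some of them may be cycling cells whose Mki67 RNA was not captured. Top2a, a further gene of cycling cells, was detected in 29.5% of the fetal and 8.13% of the marrow cells lacking Mki67 UMIs. After thinning, with Mki67 read again, these shares were 15.9% (fetal) and 5.85% (marrow). The part of this in the ratios was not tested. The cells with Mki67 UMIs were also of unlike mix in the libraries. Of the 317 in bone marrow, 131, 78 and 63 lay in clusters, made as described below, led by Arl5c, by Gzma and by Bex6.

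Cells were clustered in each library without the 10 genes and without genes that followed Mki67 and Top2a, which gave 14 fetal liver and 10 bone marrow clusters of at least 50 cells. In the same clusters, Cdk4 and Cdkn2d were higher in cells with Mki67 UMIs in 14 of 14 fetal liver clusters and 3 of 3 bone marrow clusters with at least 20 cells of each kind. The interval lay above 0 in 6 of 14 and 1 of 3 of these clusters for Cdk4, whose median log2 ratio in fetal liver was 0.11, and in 9 of 14 and 2 of 3 for Cdkn2d. Cdkn2c was higher in 13 of 14 fetal liver clusters and 3 of 3 bone marrow clusters, with medians of the log2 ratio of 2.46 in fetal liver and 1.20 in bone marrow. Its interval lay above 0 in 9 of 14 and 2 of 3. Ccnd2 was lower in 12 of 14 fetal liver clusters and 3 of 3 bone marrow clusters, with medians of -0.41 in fetal liver and -0.71 in bone marrow. Its interval lay below 0 in 9 of 14 and 2 of 3, all as counted. For both Cdk6 and Ccnd3 the bone marrow clusters did not follow the pooled bone marrow value. Cdk6, at 0.18 in the pooled cells, was lower with Mki67 UMIs in 3 of 3 clusters, and Ccnd3, at 0.47 in the pooled cells, was lower in 2 of 3, with the interval below 0 in 1 cluster for Cdk6 and in 0 for Ccnd3. In fetal liver each was lower in 12 of 14 clusters, with the interval below 0 in 3 for Cdk6 and in 4 for Ccnd3.

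**Figure D4:**
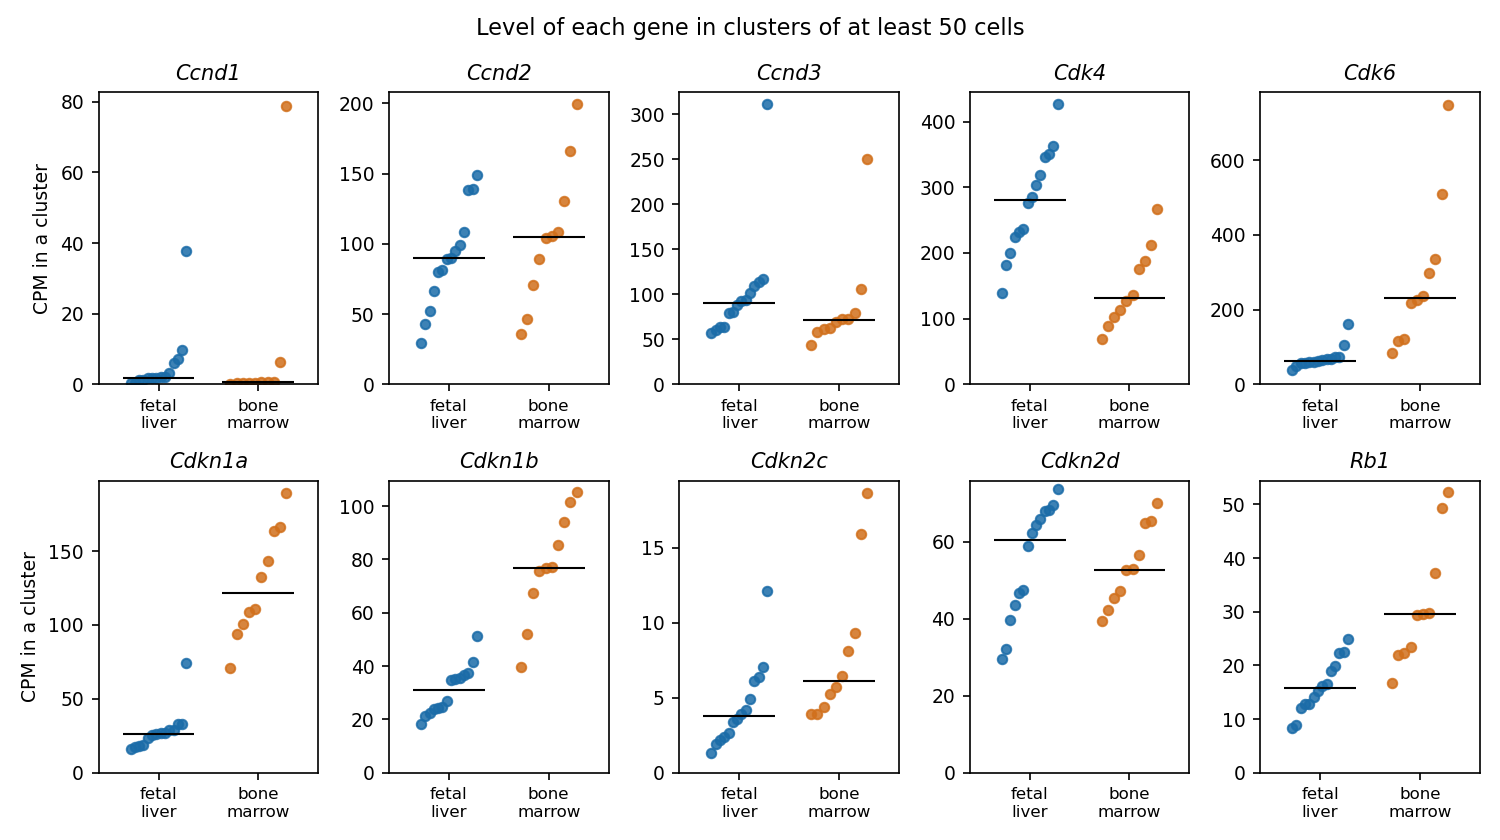
CPM of each gene in the 14 fetal liver (blue, left) and 10 bone marrow (orange, right) clusters of at least 50 cells; each point is a cluster, the black line is the median, and each panel has its own axis from 0. For Cdk6 and Cdkn1b 12 fetal liver clusters, and for Cdkn1a 13, lie below all bone marrow clusters, and single clusters stand apart for Ccnd1 and Ccnd3.

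The low level of Cdk6, Cdkn1a and Cdkn1b was spread over the fetal liver clusters. For Cdk6, 12 of 14 fetal liver clusters lay below every bone marrow cluster, with ranges of 38.2 to 162 CPM in fetal liver and 84.3 to 748 CPM in bone marrow. For Cdkn1a it was 13 of 14, at 15.9 to 74.5 CPM in fetal liver and 70.6 to 189 CPM in bone marrow, and for Cdkn1b 12 of 14, at 18.1 to 51.2 CPM in fetal liver and 39.8 to 105 CPM in bone marrow. Cdk4 ran the other way, with 8 of 14 fetal liver clusters above every bone marrow cluster. Clusters of a library share its depth and preparation and are not replicates.

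Within bone marrow, Cdk6 was highest, at 748 CPM, in an early lymphoid progenitor-like cluster led by Gzma and Arpp21 and with Dntt among its leading genes, and next at 509 CPM in an unnamed cluster led by Bex6 and Irf8. It was lowest, at 84.3 CPM, in an ILC2-like cluster, where Ccnd2 was at its highest of 200 CPM. Ccnd3 was also highest in bone marrow in the early lymphoid progenitor-like cluster, at 250 CPM. In fetal liver Cdk6 peaked at 162 CPM in an unnamed cluster with erythroid, mast and neutrophil markers. Ccnd3 peaked there at 311 CPM in a B lineage-like cluster of 185 cells led by Vpreb3 and Igll1, where Ccnd2 was at its lowest of 29.4 CPM.

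Ccnd1, rare in the libraries as a whole, stood out in few clusters. In fetal liver it was highest in the B lineage-like cluster, with 72 UMIs, or 37.9 CPM, in 37 of 185 cells. More of its fetal liver UMIs, 107, lay in a larger unnamed cluster of 765 cells led by S100a9 and S100a8, at 9.61 CPM. There 4 early lymphoid progenitor markers were raised, Ly6d, Notch1, Cd34 and Satb1, and 2 neutrophil markers, S100a8 and S100a9. In the whole fetal liver library 146 cells had an S100a8 UMI. In bone marrow 40 of the 81 Ccnd1 UMIs lay, at 78.8 CPM, in a cluster of 170 LTi or ILC3-like cells that was led by Prr29 and by the MHC class II gene H2-Eb1, where 15.9% of cells had a Ccnd1 UMI. The fetal liver cluster led by the MHC class II genes H2-Aa and H2-Eb1 had 3.20 CPM of Ccnd1. The next highest bone marrow cluster, that led by Bex6 and Irf8, had 6.41 CPM.

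Named cell classes present in both libraries were compared next, each a class of cells that carry the marker genes of an innate lymphoid cell (ILC) lineage. They were ILC progenitor-like, ILC2-like, NK or ILC1-like, and LTi or ILC3-like cells. Their clusters were 1 fetal liver and 1 bone marrow cluster for ILC progenitor-like cells, and 170 bone marrow cells stood for the LTi or ILC3-like class. Cdkn1a was more than 2-fold lower in fetal liver in all 4, with log2 ratios of -2.00, -2.06, -2.56 and -2.67 in that sequence. Cdk6 was lower in all 4 too, at -2.47 and -2.20 in ILC progenitor-like and NK or ILC1-like cells but at -0.80 in ILC2-like and -0.91 in LTi or ILC3-like cells, which did not reach 2-fold. Cdkn1b ranged from -1.60 in ILC2-like to -0.91 in NK or ILC1-like cells, and Cdk4 from 1.32 in ILC progenitor-like to 0.38 in NK or ILC1-like cells. Among cells with Mki67 UMIs, only the ILC2-like class had more than 18 bone marrow cells, namely 133. There Cdk6 stood at -0.87 (-1.19 to -0.53), against -2.20 over all cells with Mki67 UMIs. Cdkn1a at -2.01, Cdkn2c at -2.30 and Rb1 at -1.30 remained more than 2-fold lower in these ILC2-like cells.

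Over all cells of a class, Ccnd2 differed in direction between classes. In ILC progenitor-like cells it had 81.4 CPM in fetal αLPs and 35.6 CPM in marrow αLPs, or a log2 ratio of 1.19 (interval 0.94 to 1.45). In ILC2-like cells it had 106 CPM in fetal αLPs and 138 CPM in marrow αLPs, a ratio of -0.39 (-0.50 to -0.27), and in NK or ILC1-like cells 132 CPM in fetal αLPs and 166 CPM in marrow αLPs, a ratio of -0.33 (-0.47 to -0.19). Within ILC2-like cells the direction of Ccnd2 also depended on Mki67. Those with Mki67 UMIs had 94.4 CPM in fetal αLPs and 38.0 CPM in marrow αLPs, a ratio of 1.31 (0.82 to 1.84). Those without had a ratio of -0.43 (-0.55 to -0.30). With Mki67 UMIs, the intervals for ILC progenitor-like cells (5 in bone marrow) and NK or ILC1-like cells (18 in bone marrow) reached past 0 on both sides. Ccnd3 was higher in fetal liver in all 4 classes, from 0.36 to 0.71, where the interval in LTi or ILC3-like cells reached below 0. The rare Ccnd1 had 17 UMIs or 1.42 CPM in fetal and 40 UMIs or 78.8 CPM in marrow LTi or ILC3-like cells, and at most 25 UMIs in any other class and library. Rb1 was more than 2-fold lower in ILC2-like cells, at -1.24, and not lower in ILC progenitor-like cells, at 0.18 (-0.18 to 0.54).

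**Figure D5:**
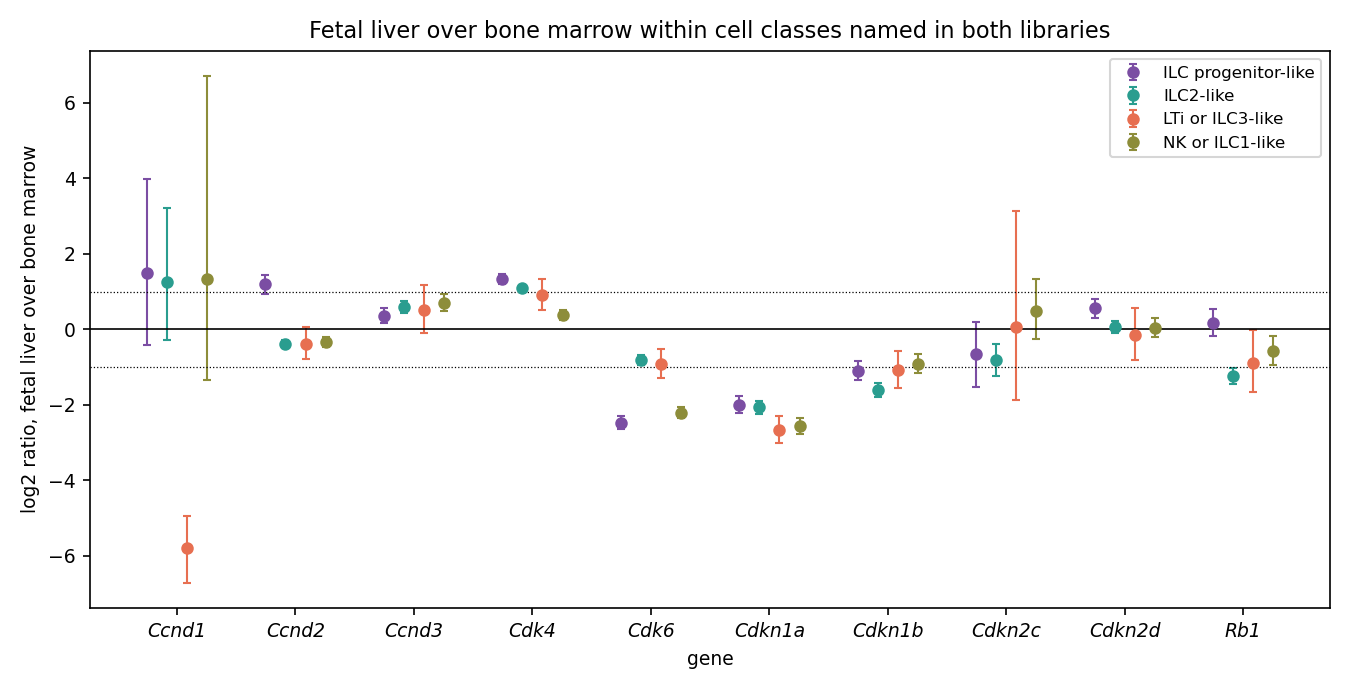
Log2 ratio of CPM, fetal liver divided by bone marrow, for each gene in the 4 classes named in both libraries, with exact 95% intervals for counting error and dotted lines at 2-fold. Cdkn1a lies between -2.67 and -2.00, and Ccnd2 lies at 1.19 in ILC progenitor-like cells and between -0.39 and -0.33 in the others.

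Genes that act with the set were counted in lists chosen with earlier results known, and up to 4 genes of each with the widest difference are named. Over all genes that reached 10 CPM, 7.25% passed 2-fold upward and 10.9% downward over all cells, 4.92% and 7.99% in cells with Mki67 UMIs, and 7.07% and 10.4% in cells without, and the counts of each list are to be read against these shares. The genes of cyclin E, cyclin A and CDK2, which drive the step after the D cyclins, were counted first. Of 9 that reached 10 CPM, 3 passed 2-fold upward and 0 downward, and the widest log2 ratios were 2.21 for Ccna2 (cyclin A), 1.90 for Ccne1 (cyclin E), 1.34 for Cks1b, a CDK subunit, and 0.89 for Cdk2. Of 15 E2F target genes of S phase, 10 passed it upward and 0 downward, with 1.66 for Cdc45 and 1.59 for Cdc6, which act at replication origins, and 1.60 for Rrm2, a subunit of ribonucleotide reductase. The S phase list had a median of 1.19 over all cells and of -0.02 in cells with Mki67 UMIs, where 0 genes passed upward and 1 downward. In cells without Mki67 UMIs 11 of the 15 passed upward, with a median of 1.41.

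Among 7 E2F and pocket protein genes, 1 passed 2-fold upward, E2f1 at 1.09, and 0 downward, with Rbl2, a relative of Rb1, at -0.75, Tfdp2 at -0.70 and E2f8 at 0.64. Of 15 other cyclins and CDKs 3 passed upward, the mitotic genes Ccnb1 at 2.53, Cdk1 at 2.17 and Ccnb2 at 1.96, and 0 downward, with Ccnt1 at -0.83. Of the 4 other CDK inhibitors, 2 reached 10 CPM and both passed 2-fold upward over all cells and in cells without Mki67 UMIs, while in cells with Mki67 UMIs 0 did and the median was -0.05. Cdkn1c, an imprinted gene that encodes p57, had 22.2 CPM in fetal αLPs and 4.98 CPM in marrow αLPs, and Cdkn3 had 23.9 CPM in fetal αLPs and 9.55 CPM in marrow αLPs. Cdkn2a, which encodes the INK4 protein p16 among others, had 6 UMIs in the fetal and 5 UMIs in the marrow library, and Cdkn2b 5 UMIs in the fetal and 2 UMIs in the marrow library.

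Immediate early genes and regulators of the set were lower in fetal liver, as were Cdkn1a and Cdkn1b. All 12 genes listed here as immediate early, a list that by choice also took in Btg1, passed 2-fold downward, where 10.9% of all genes did. Their summed level was 5585 CPM in fetal αLPs and 16886 CPM in marrow αLPs. The widest log2 ratios were -2.66 for Btg1, -2.57 for Nr4a1, -2.40 for Zfp36 and -2.40 for Fosb. In cells with Mki67 UMIs 7 of the 12 passed it, where 7.99% of all genes did. Of 11 regulators of D cyclins and inhibitors, 0 passed upward and 8 downward, with -2.05 for Klf2, a factor of resting lymphocytes, -1.84 for the receptor Notch2, -1.57 for Foxo3, a factor that can switch on Cdkn1b, and -1.54 for Stat5b, which acts below cytokine receptors. Of 9 p53 target genes 0 passed upward and 3 downward, with -2.02 for Trp53inp1, -1.72 for Btg2, -1.42 for Plk2 and 0.73 for Pmaip1, and the list's median was -0.14. The part of these genes in the level of Cdkn1a and Cdkn1b was not tested.

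Across the 24 clusters, after centring within each library, Cdk4 was most like Cdk2ap1 with a Pearson r of 0.94 (0.97 within fetal liver and 0.92 within bone marrow). For Cdk6 the most alike gene was Cpne2 at 0.88, for Ccnd3 it was Dnajc7 at 0.82, and for Cdkn1b it was Whsc1l1 at 0.79. Within the set, Cdk4 and Cdk6 had an r of 0.57 and Cdk4 and Cdkn1b one of -0.61. Clusters share a library and differ in depth and in their share of cycling cells, so these values describe the pattern only.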

How the data were processed

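Per the labels, a 10x Chromium 3′ kit and a NovaSeq instrument were used, and the authors counted UMIs and filtered barcodes that hold no cell. The deposited matrices hold raw UMI counts. Per the file headers they were written by software 3.0.1 in format 2, and the submitters' processing notes name mm10 and Seurat 4.0. For aligner, annotation and use of strand, the sources used here give nothing. The deposited gene and barcode lists hold identifiers only and no unit (other). GENCODE M21 held 27645 of the 27998 gene identifiers.

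Barcodes with under 500 genes or over 10% mitochondrial UMIs were left out (363 in fetal liver and 109 in bone marrow). No doublet caller was run, and leaving out the 5% deepest cells stood in for it. Counts were summed over cells and scaled to CPM, with 10 CPM in the higher group as minimum and 2-fold as the mark. Ratios have exact conditional binomial intervals, levels exact Poisson and shares Clopper-Pearson intervals at 95%, for counting error only. With 1 library per tissue there was no test. Ratios and intervals were tested on simulated data; coverage missed the first pass mark in 1 fold group, and the mark was then replaced by an exact binomial check, which was met. Clusters came from scanpy 1.11.5 (Leiden, resolution 1, 30 components, 15 neighbours, 2000 genes) per library. They were named where at least 3 listed markers were raised, more than of any other class. No other class could hold as many of the 10 leading genes, unless it held none of them. Other ties were barred after the clusters were seen, and 16 of 27 clusters were named. The fetal liver ILC progenitor-like cluster, led by Igf2 and H19, had no marker of its class among its 10 leading genes. The same was true of the fetal liver LTi or ILC3-like cluster led by Fabp4 and Dlk1. TMM factors came from edgeR 4.0.16. Named from each other list were the 4 genes with the largest absolute log2 ratio and at least 10 CPM, and for likeness the 3 genes with the highest r. One gene that this rule picks is not reported here. Genes named outside that rule (Myc, Mycn, Tspan31, Lpar6, LTO1, Bysl, Cdkn2a, Cdkn2b, gate and sex-linked genes) were chosen after their values were seen. Members, lists and tests were chosen with earlier results of these data known.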

Additional observations from a re-analysis of the deposited data

Results flagged for a closer look

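Ccnd2 was flagged because its ratio of fetal liver over bone marrow pointed in opposite directions in different cell classes. It was 1.19 on the log2 scale in ILC progenitor-like cells, against -0.39 in ILC2-like cells and -0.33 in NK or ILC1-like cells. Within ILC2-like cells the Ccnd2 ratio was 1.31 with Mki67 UMIs and -0.43 without. Each class came from 1 library per tissue, and the differences between classes and between Mki67 states were not tested.

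Ccnd3 was flagged for the split by Mki67. Its log2 ratio of cells with over cells without Mki67 UMIs was -0.075 in fetal liver and 0.47 in bone marrow. Over the alternative settings the fetal liver value ran from -0.088 to 0.086 and so changed sign. Equally, the Ccnd3 ratio of fetal liver over bone marrow was -0.32 in cells with Mki67 UMIs and 0.22 in cells without. These differences were not tested, and within bone marrow clusters Ccnd3 was lower with Mki67 UMIs in 2 of 3.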

How the results depend on the processing

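No paired analysis was possible because each tissue had 1 library and no replicate numbers to share, and for the same reason no replicate could be left out. Over 50 gene ratios and their alternatives, 444 of 588 values stayed within the main interval, 144 moved and 36 changed sign, where the main log2 value was at most 0.46; none of the ratios past 2-fold with at least 10 CPM changed sign. Cdk6, Cdkn1a and Cdkn1b stayed at least 2-fold lower in fetal liver, from -2.24 to -1.75, from -2.31 to -1.85 and from -1.45 to -1.18. TMM and median-ratio factors raised all ratios of fetal liver over bone marrow by 0.14 and 0.16. The median ratio of -0.49 became -0.36 with TMM factors, -0.33 with median-ratio factors, -0.37 with cells of at least 1000 genes, -0.078 at a minimum of 50 CPM, -0.40 without clusters of other blood lineages and -0.69 over the named classes weighing the same, an alternative added after the data were seen. With median-ratio factors 1 gene, Cdk4 at 1.00, was 2-fold higher in fetal liver. In fetal liver, 1 gene was higher with Mki67 UMIs (Cdkn2c) with 1 CPM added and no CPM minimum, with each cell weighing the same, with thinned cells, without the deepest cells and with at least 2 Mki67 UMIs. In bone marrow, 1 was lower (Ccnd2) with each cell weighing the same, with thinned cells, without the deepest cells and with at least 2 Mki67 UMIs, and 0 were higher at 50 CPM. In cells with Mki67 UMIs, 1 gene was higher in fetal liver with 1 CPM added and no minimum (Ccnd1 at 1.12, against 1.70 with nothing added) and in thinned cells (Ccnd2 at 1.23), and 2 were lower at 50 CPM. The causes were not tested. Counts were low for Ccnd1, with 3 UMIs in the 317 bone marrow cells with Mki67 UMIs, and for Cdkn2c, with 86.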
